A study of Mus musculus with 10 samples.

Results

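Caspases are cysteine proteases that cut their targets after aspartate residues. The genes described here are Casp1, Casp2, Casp4, Casp6, Casp8 and Casp9, taken as every probe set whose single annotated symbol was one of these names. They made up 6 of 17097 genes and 8 of 45037 probe sets of a mouse expression array. All 8 probe sets lay above the median of their array on 10 of 10 arrays, and all 6 genes were among the 11037 genes bright enough to be tested. Where a gene had several probe sets (Casp6 and Casp9), the one with the highest mean over the 10 arrays was taken as the main one.

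Spleens of DBA/1 mice, an inbred line in which arthritis can be induced, gave the CD4+ T cells studied, which were sorted by flow cytometry and pooled over several mice. The arrays fell into 4 groups. CD49b+ cells (3 arrays) were CD4+ cells sorted for the integrin alpha 2 chain, the product of Itga2. CD25+ cells (3 arrays) were CD4+ cells sorted for the product of Il2ra, the alpha chain of the interleukin 2 receptor. Both subsets came from mice injected with immature dendritic cells, as did a group of CD4+ cells on 2 arrays. The last group, also on 2 arrays, held CD4+ cells of naive mice, which were given no dendritic cells. Each injection put 500000 dendritic cells in the peritoneal cavity, and the injections were given 7, 5 and 3 days ahead of spleen collection. The labels name no genetic change in any group and do not say whether replicates were separate pools of mice, so the p-values measure only the spread between these arrays, which may be technical.

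Caspases fall into classes by what switches them on and what they cut. Inflammatory caspases are activated by inflammasomes, complexes that assemble on sensing microbial or damage signals, and they mature cytokines and open gasdermin pores in the cell membrane. Initiator caspases are activated on a platform at a death receptor, on the apoptosome after mitochondrial damage, or on the PIDDosome, and executioner caspases then dismantle the cell. In T cells the same proteases limit the survival of activated clones, and caspase-8 is also needed for T cells to expand without dying by necroptosis. All are made as inactive precursors, so that a transcript level is not a measure of protease activity.

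Values are log2 expression values deposited by the authors, so that a difference of 1 is a doubling. A gene was called higher or lower where the adjusted p of a limma fit of all 10 arrays was under 0.05, with Benjamini-Hochberg adjustment over the 11037 genes tested. All adjusted p-values below come from this fit unless another setting is named. The comparisons of both subsets with CD4+ cells share the same 2 arrays of CD4+ cells of injected mice, which also stand in the comparison with naive mice.

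The arrays correlated with others of their group at 0.988 to 0.998. The median of all probe sets was 4.61 to 4.65 on the 6 subset arrays and 4.79 to 4.81 on the 4 CD4+ arrays. Cd4 and Cd3e lay above the array median on 10 of 10 arrays. Il2ra averaged 8.83 in CD25+ cells and 6.29 in CD49b+ cells, against 4.17 in CD4+ cells of injected mice. Itga2, which encodes the marker used to sort CD49b+ cells, averaged 5.78 in these cells and 5.82 in CD4+ cells of injected mice, a difference of -0.05 that was not called (adjusted p = 0.717).

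Inflammatory caspases varied most among the 6 genes. Casp1 encodes the protease that cuts the precursors of interleukin 1 beta and interleukin 18 and cleaves gasdermin D. It had log2 values of 9.66, 9.68 and 9.61 in CD49b+ cells, 8.80, 9.10 and 8.75 in CD25+ cells, 7.08 and 7.63 in CD4+ cells of injected mice, and 8.50 and 8.90 in CD4+ cells of naive mice. The CD49b+ arrays lay above all the others, the arrays of CD4+ cells of injected mice lay below all the others, and the CD25+ and naive CD4+ arrays overlapped in between.

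Casp4 encodes the mouse protease also called caspase-11, which binds bacterial lipopolysaccharide in the cytosol. Its log2 values were 8.74, 8.92 and 8.66 in CD49b+ cells, 8.70, 9.06 and 8.49 in CD25+ cells, 6.58 and 7.47 in CD4+ cells of injected mice, and 8.21 and 8.31 in CD4+ cells of naive mice. The subsets overlapped and lay above both kinds of CD4+ cells, and CD4+ cells of injected mice were again lowest, with the greatest gap between replicates of all the groups for this gene.

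**Figure D1:**
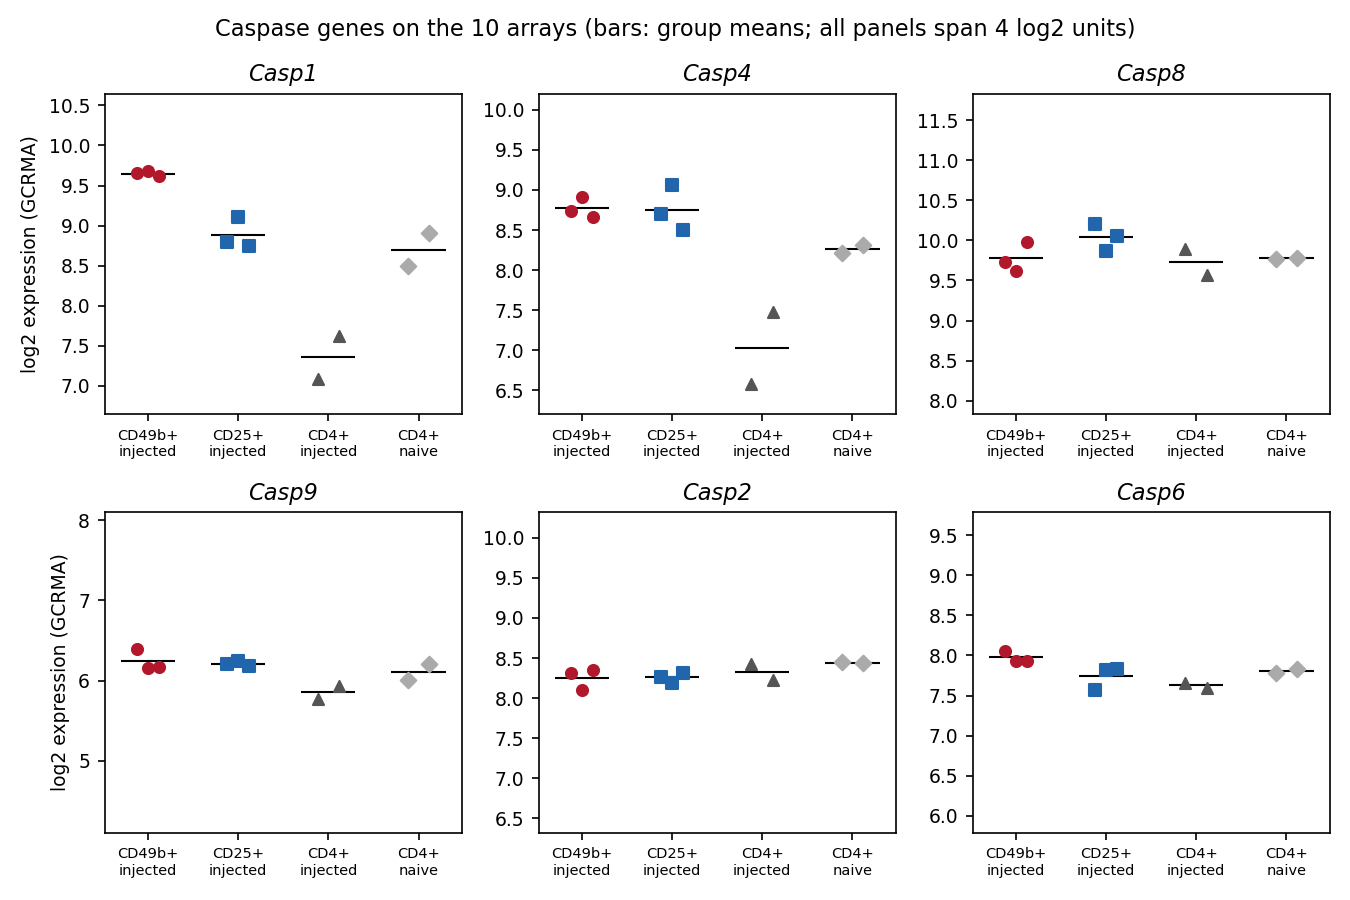
Log2 expression of the main probe set of each caspase gene (vertical axis, each panel spanning the same number of log2 units) on the arrays of the 4 groups (horizontal axis), with bars at group means. Casp1 and Casp4 vary by 2.29 and 1.74 between the highest and lowest group means, and the other 4 genes by 0.19 to 0.39.

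Casp1 and Casp4 are neighbours on mouse chromosome 9 and read in the same direction, with no other protein-coding gene of the RefSeq table between them. Both had their lowest mean in CD4+ cells of injected mice, as did Casp6, Casp8 and Casp9. Of the 6 genes, Casp1 and Casp4 had the widest ranges of group means, 2.29 and 1.74. The 250 bases before the start of Casp1 and of Casp4 are shown. They come from RefSeq, build GRCm38.p6, plus strand, Casp1 at chr9:5298267-5298516 and Casp4 at chr9:5308599-5308848, for 1 of 2 Casp4 starts listed. Capitals mark matches on either strand to the letters GGAA, the core bound by ETS factors, and to GGGNNTTTC, most of a kappaB motif bound by NF-kappaB.
Casp1: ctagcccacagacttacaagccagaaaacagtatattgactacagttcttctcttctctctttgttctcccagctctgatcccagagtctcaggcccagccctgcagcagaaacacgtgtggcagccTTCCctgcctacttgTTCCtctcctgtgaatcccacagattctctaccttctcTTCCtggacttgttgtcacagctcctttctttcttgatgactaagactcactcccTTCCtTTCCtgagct
Casp4: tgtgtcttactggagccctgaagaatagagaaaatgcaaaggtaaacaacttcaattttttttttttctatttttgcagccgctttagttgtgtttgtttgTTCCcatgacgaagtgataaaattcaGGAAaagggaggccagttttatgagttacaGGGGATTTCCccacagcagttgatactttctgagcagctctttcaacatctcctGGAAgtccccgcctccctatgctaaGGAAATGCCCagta
Each of these windows held 5 matches to GGAA, letters found in 93.4% of the 27025 RefSeq promoters of the same length. The Casp4 window held 2 matches to the kappaB letters, each overlapping a GGAA match, and the Casp1 window held 0. Of all these promoters, 3.79% held the kappaB letters, and the windows of the other 4 caspase genes held 0 matches. Neither window held a match to TTCNNNGAA, the GAS motif bound by STAT factors, to the ISRE core GAAANNGAA, to the AP-1 motif TGANTCA, to the RUNX core TGTGGT or to TATAAA, which 7.18%, 7.16%, 6.87%, 14.2% and 13% of promoters held. These matches are descriptions of letters, and binding was not measured.

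The first question was how the CD49b+ subset differed from CD4+ cells of injected mice. Of the 6 caspase genes, 4 were called higher and 0 lower, where 53.4% of all genes tested were called and 29.9% were called higher. Casp1 was higher by 2.29 ± 0.18 (SE), a 4.90-fold difference, with an adjusted p of 7.32e-06. Casp4 was higher by 1.74 ± 0.24 (SE), or 3.35-fold, with an adjusted p of 0.000247. These 2 differences were larger in size than those of 98.2% and 96.5% of the genes tested.

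The other 2 calls were small. Casp9, the initiator activated on the apoptosome, was higher by 0.39 ± 0.10 (SE, adjusted p = 0.0104). Casp6, an executioner that cuts nuclear lamins, was higher by 0.35 ± 0.10 (SE, adjusted p = 0.0142). Casp8, the death receptor initiator, differed by 0.04 (95% interval -0.27 to 0.36), and Casp2, the PIDDosome initiator, by -0.07 (95% interval -0.29 to 0.15), and neither was called. The CD49b+ arrays did not overlap the arrays of CD4+ cells of injected mice for 4 of the 6 genes, Casp1, Casp4, Casp6 and Casp9, against 70.3% of all genes tested.

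The calls of Casp6 and Casp9 were lost against CD4+ cells of naive mice, described below. With quantile normalization the Casp6 difference was 0.27 and was not called (adjusted p = 0.0616). Both calls also depended on single arrays of CD4+ cells of injected mice and on the probe set. The Casp6 call was lost without replicate 2 of these cells (adjusted p = 0.0823), and the Casp9 call without replicate 1 (adjusted p = 0.0895), within ranges over all alternatives of 0.0011 to 0.503 for Casp6 and 0.00112 to 0.322 for Casp9.

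The second question was how the CD25+ subset, which holds conventional regulatory T cells, differed from the same CD4+ cells. Of the 6 genes, 3 were called higher and 0 lower, where 38.6% of all genes were called and 20.8% were called higher. Casp4 was higher by 1.72 ± 0.24 (SE), or 3.30-fold (adjusted p = 0.000438). Casp1 was higher by 1.53 ± 0.18 (SE), or 2.89-fold (adjusted p = 0.000142). Casp9 was higher by 0.36 ± 0.10 (SE, adjusted p = 0.0203), a call lost without replicate 1 of CD4+ cells of injected mice (adjusted p = 0.146, range over alternatives 0.00328 to 0.489).

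The remaining 3 genes were not called in CD25+ cells. Casp8 differed by 0.31 (95% interval -0.01 to 0.62, adjusted p = 0.112), Casp6 by 0.11 (95% interval -0.11 to 0.33) and Casp2 by -0.07 (95% interval -0.29 to 0.16). With each array centred on its own median, Casp8 and Casp6 were called higher as well (adjusted p = 0.024 and 0.0435, ranges over alternatives 0.024 to 0.542 and 0.0435 to 0.933). The CD25+ arrays did not overlap those of CD4+ cells of injected mice for Casp1, Casp4 and Casp9, 3 of 6 genes, against 58.9% of all genes tested.

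CD4+ cells of naive mice offer another comparator, chosen after seeing the data. Against them, 1 of 6 caspase genes was called in CD49b+ cells, where 47.6% of all genes were called, and 0 of 6 in CD25+ cells, where 33.5% were called. Of the 6 genes, 1 had an unadjusted p under 0.05 in CD49b+ cells and 0 in CD25+ cells. Casp1 was 0.95 ± 0.18 (SE) higher in CD49b+ cells than in CD4+ cells of naive mice (adjusted p = 0.00176). The difference for Casp1 in CD25+ cells was 0.19 (95% interval -0.21 to 0.58, adjusted p = 0.446). Casp4 differed by 0.51 in CD49b+ cells and 0.49 in CD25+ cells (adjusted p = 0.103 and 0.141). Casp6 and Casp9 differed by 0.16 and 0.13 in CD49b+ cells (0.195 and 0.316), and Casp9 by 0.10 in CD25+ cells (0.467). All the caspase calls of the subsets except that of Casp1 in CD49b+ cells therefore rested on the comparator.

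**Figure D2:**
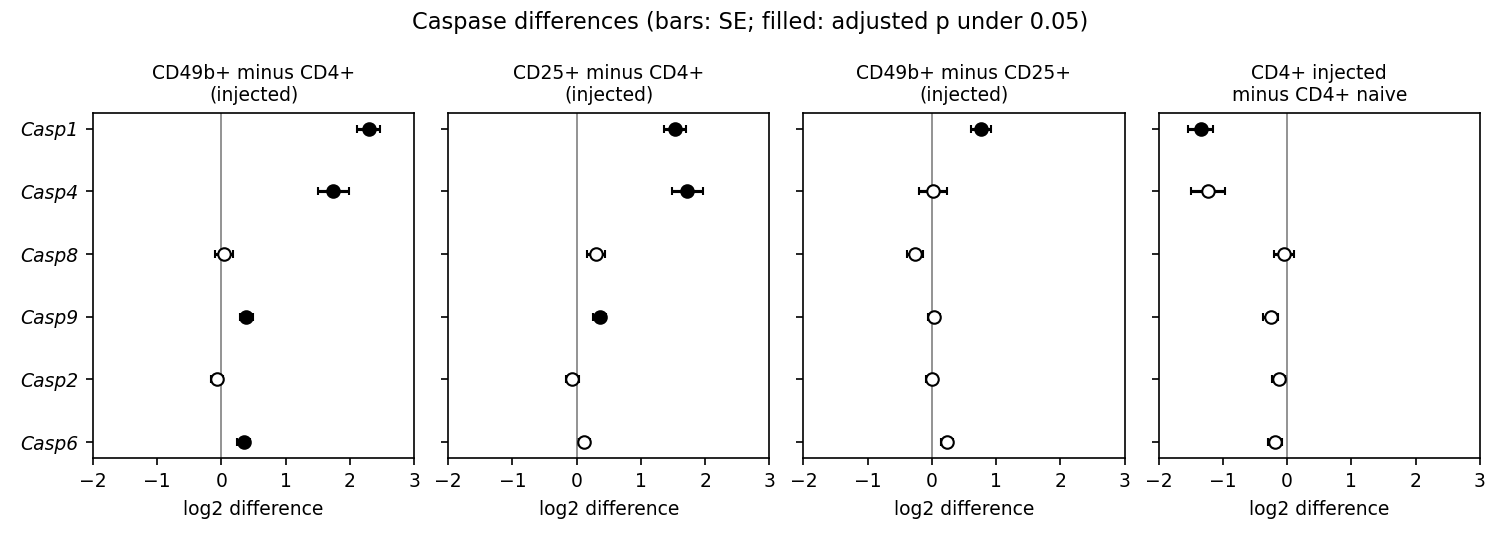
Log2 difference (horizontal axis) of each caspase gene (vertical axis) in the 4 comparisons, with standard errors as bars and filled points where the adjusted p was under 0.05. Casp1 is filled in all 4 comparisons, Casp4 and Casp9 in the 2 comparisons of a subset with CD4+ cells of injected mice, and Casp2 and Casp8 in none.

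The third question was how both subsets differed from each other. Casp1 was the 1 caspase called, where 29.9% of all genes were called and 17.5% were called higher. It was 0.76 ± 0.16 (SE) higher in CD49b+ cells than in CD25+ cells, or 1.70-fold, with an adjusted p of 0.00497, and was called under all 20 alternatives run for this comparison (adjusted p 0.000489 to 0.023). The lowest CD49b+ array, at 9.61, lay above the highest CD25+ array, at 9.10.

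Casp4 differed between the subsets by only 0.02 (95% interval -0.46 to 0.50, adjusted p = 0.96), so that a difference of the size seen for Casp1 lies outside its interval. Casp6 differed by 0.23 (95% interval 0.04 to 0.43, adjusted p = 0.0722), with CD49b+ arrays of 8.06, 7.93 and 7.93 above CD25+ arrays of 7.56, 7.82 and 7.84, and was called with each array centred on its median (adjusted p = 0.0412, range over alternatives 0.0412 to 0.599). Casp8 differed by -0.26 (95% interval -0.54 to 0.02, adjusted p = 0.15), Casp9 by 0.03 (95% interval -0.18 to 0.23) and Casp2 by 0.00 (95% interval -0.20 to 0.20). Arrays of the subsets did not overlap for 2 of 6 genes, Casp1 and Casp6, against 41.6% of all genes tested.

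The fourth question was how CD4+ cells of injected mice differed from those of naive mice. Few genes were called at all in this comparison, 1.39% of those tested and 1.36% as lower, and Casp1 was among them. It was lower in cells of injected mice by 1.34 ± 0.19 (SE), a 2.54-fold difference, with an adjusted p of 0.00999. That call was lost without replicate 2 of naive CD4+ cells (adjusted p = 0.142), without replicate 1 of injected CD4+ cells (0.0676) and with only these 4 arrays in the fit (0.109), in a range over alternatives of 0.00139 to 0.142.

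Casp4 had a difference of -1.23 ± 0.26 (SE) in CD4+ cells of injected against naive mice, just short of the threshold (adjusted p = 0.0565). It was called without replicate 2 of the injected cells (a difference of -1.68, adjusted p = 0.0131), in a range over alternatives of 0.00776 to 0.47. Casp9 differed by -0.26 (adjusted p = 0.396), Casp6 by -0.18 (0.56), Casp2 by -0.12 (0.75) and Casp8 by -0.05 (0.966), and none of these was called. Arrays did not overlap for 5 of 6 genes, all but Casp8, and were lower in the injected mice, against 48.5% of all genes in either direction and 30% lower.

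Markers of other cells also differed beside the Casp1 and Casp4 differences. Of 14 myeloid and dendritic cell markers, 12 had a probe set, whose summed linear level was 628 to 759 on arrays of injected CD4+ cells, against 1297 to 1651 on naive ones. Of the 8 tested, 0 were higher and 4 lower in this comparison, with a median of -1.04, where 1.36% of all genes tested were called lower. The same sum was 589 to 721 in CD49b+ cells and 568 to 740 in CD25+ cells, but its members went different ways. Against injected CD4+ cells, 53.4% of all genes tested were called in CD49b+ and 38.6% in CD25+ cells. Of these markers, 1 was higher and 5 lower in CD49b+ cells, and 2 were higher and 3 lower in CD25+ cells. The higher ones were Ifi30 in CD49b+ cells (0.85, adjusted p = 0.0113), and Fcer1g and Cybb in CD25+ cells (1.90 and 0.60, adjusted p = 0.000604 and 0.0218). Of the defining myeloid markers, Itgam lay above the array median on 0 of 10 arrays, Adgre1 on 7 and Csf1r on 10. In injected against naive CD4+ cells, Csf1r differed by -0.09 and was not called (adjusted p = 0.847). Adgre1 differed there by -0.85 and was called lower (0.029).

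The 8 B cell markers with a probe set summed to 329 to 357 in injected CD4+ cells, against 560 to 683 in naive ones, and to 220 to 225 in CD49b+ and 285 to 322 in CD25+ cells, with Pax5 above the array median on 0 arrays and Cd79a on 4. Of the 5 tested, 0 were higher and 2 lower in injected against naive CD4+ cells, where 1.36% of all genes tested were called lower. The lower ones were Cd22 (-1.02, adjusted p = 0.00901) and Ly86 (-1.34, 0.0192). Cd79a (0.08), Cd79b (-0.25) and Blk (-0.04) were not called. Against injected CD4+ cells, 1 was higher and 3 lower in CD49b+ cells and 1 higher and 1 lower in CD25+ cells. The shares of all genes called were 53.4% and 38.6%. The higher marker was Cd79b in both (0.96 and 1.53, adjusted p = 0.000373 and 3.85e-05). It averaged 4.42 in injected CD4+ cells, under the medians of their arrays.

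Markers of natural killer cells, 7 with a probe set, summed to 631 to 925 in CD49b+ cells, 236 to 307 in CD25+ cells and 248 to 280 in injected CD4+ cells, with Ncr1 above the array median on 6 arrays and Eomes on 10. Of the 5 tested, 3 were higher and 2 lower in CD49b+ against injected CD4+ cells, where 53.4% of all genes were called. Gzma (3.97), Nkg7 (2.78) and Ncr1 (0.65) were higher (adjusted p = 2.73e-06, 0.0003 and 0.0301), and Eomes (-0.91) and Prf1 (-1.10) were lower (5.28e-05 and 3.07e-05). Gzma and Ncr1 averaged 4.24 and 4.47 in injected CD4+ cells and 4.09 and 4.45 in naive ones, under the medians of those arrays. Both entered the tests only through the subset arrays. Against injected CD4+ cells, CD25+ cells had 2 higher and 2 lower, where 38.6% of all genes were called. The part of such cells in the caspase differences was not tested. In bulk samples, fewer cells of a type and less RNA per cell cannot be told apart.

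Casp1 and Casp4 followed each other over the arrays, except that Casp1 lay further above Casp4 in CD49b+ cells than in the other groups. Their levels, each centred on its own mean, differed by a root mean square of 0.32 over the 10 arrays, which made Casp4 number 15 of 11036 genes by likeness to Casp1, and Casp1 number 19 by likeness to Casp4. The value of Casp1 minus Casp4 was 0.92, 0.76 and 0.95 on the CD49b+ arrays and 0.10, 0.04 and 0.26 on the CD25+ arrays. It was 0.50 and 0.15 in injected and 0.28 and 0.60 in naive CD4+ cells. The CD49b+ arrays lay above all the others in this measure.

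**Figure D3:**
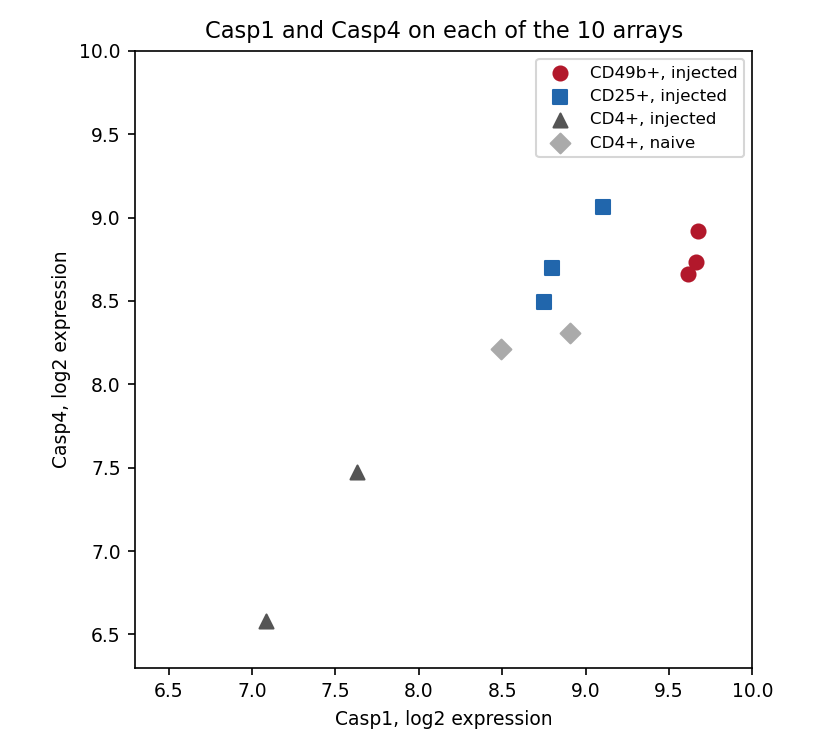
Log2 expression of Casp1 (horizontal axis) and Casp4 (vertical axis) on each of the 10 arrays, by group. The CD49b+ arrays lie at the highest Casp1 levels, 9.61 to 9.68, while their Casp4 levels overlap those of the CD25+ arrays.

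The genes most like Casp1 by the same measure were Naip2 (0.19), the potassium channel gene Kcnk6 (0.24) and the tetraspanin gene Tspan31 (0.26). Those most like Casp4 were AW112010 (0.22), Tspan31 (0.23) and BC064078 (0.23). Of the other protein-coding genes tested within 1000000 bases of the pair, Msantd4 was higher by 0.48 in CD49b+ and 0.45 in CD25+ against injected CD4+ cells (adjusted p = 0.00864 and 0.0172). Aasdhppt (-0.11 and -0.03) and Kbtbd3 (0.03 and -0.02) were not called in either subset. Casp12, the next caspase gene on that chromosome, had values of 4.10 to 4.48 and lay above the array median on 0 arrays, as did Casp14, and neither was tested.

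Initiator caspases varied less. Casp8 had log2 values of 9.73, 9.62 and 9.99 in CD49b+ cells, 10.20, 9.86 and 10.05 in CD25+ cells, 9.89 and 9.57 in injected CD4+ cells, and 9.77 and 9.79 in naive CD4+ cells. All 4 groups overlapped except that the CD25+ arrays lay above the naive ones. Casp9 had values of 6.40, 6.15 and 6.17 in CD49b+ cells, 6.21, 6.24 and 6.18 in CD25+ cells, 5.78 and 5.93 in injected CD4+ cells, and 6.0 and 6.21 in naive CD4+ cells. Injected CD4+ cells were lowest, and the other 3 groups overlapped.

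Casp2 was the steadiest of the 6, with group means spanning 0.19. Its values were 8.31, 8.11 and 8.35 in CD49b+ cells, 8.27, 8.19 and 8.32 in CD25+ cells, 8.42 and 8.23 in injected CD4+ cells, and 8.45 and 8.44 in naive CD4+ cells. The sign of its difference between each subset and injected CD4+ cells turned with the scaling. It was -0.07 for both subsets as deposited, and 0.12 for CD49b+ and 0.09 for CD25+ cells when each array was centred on its median, and it was called under neither. That centring moved the median of all genes tested to 0.22 and 0.18, against 0.03 and 0.02 as deposited, and the Casp2 values lay below the median gene both ways.

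Casp6, the executioner caspase here, had values of 8.06, 7.93 and 7.93 in CD49b+ cells, 7.56, 7.82 and 7.84 in CD25+ cells, 7.66 and 7.60 in injected CD4+ cells, and 7.79 and 7.84 in naive CD4+ cells. CD49b+ arrays were highest, and CD25+ arrays overlapped both kinds of CD4+ cells.

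The second probe sets of Casp6 and Casp9 did not follow the main ones. That of Casp6 had values of 5.20 to 5.65 over the 10 arrays, and its difference from injected CD4+ cells was -0.22 in CD49b+ and -0.09 in CD25+ cells. That of Casp9 had values of 5.63 to 6.04, with differences of -0.18 in CD49b+ and -0.20 in CD25+ cells. None of these was called when adjusted over all 24816 probe sets tested (adjusted p 0.106 to 0.512), and all 4 had the opposite sign to the main probe set. When the probe sets of each gene were averaged, Casp6 and Casp9 were called in 0 of the 4 comparisons.

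The partners of these proteases were taken from lists chosen with earlier results of these data known, 69 symbols in 8 lists. A probe set was found for 59 of them, and 50 passed the filter for testing. In injected CD4+ cells, Tradd, Cradd, Serpinb1a, Naip2, Lmna and Il18 had arrays under the CD4+ array medians of 4.79 to 4.81. Their differences from these cells therefore start at dim levels. Each list's count is set beside the share of all genes called, and no test was made of a list. Of the 11037 genes tested, 2592 were called lower in CD49b+ and 1964 in CD25+ against injected CD4+ cells, and 1371 between the subsets. Against naive CD4+ cells, the calls named below that were lost were those of Il18, Fadd and Dffa in both subsets, Naip2 in CD25+ cells, and Htra2 and Birc6 in CD49b+ cells. Among 22 genes of inflammasomes and pyroptosis, 12 were tested. Of these, 91.7% were called in each subset against injected CD4+ cells, and 25% between the subsets and between injected and naive CD4+ cells. Over all genes these shares were 53.4% in CD49b+ and 38.6% in CD25+ cells, 29.9% between the subsets and 1.39% between the CD4+ groups. In CD49b+ against injected CD4+ cells, 7 were higher and 4 lower, with a median of 0.53 against 0.03 over all genes tested. In CD25+ against injected CD4+ cells, 7 were higher and 4 lower, with a median of 0.30 against 0.02. In CD49b+ against CD25+ cells, 2 were higher and 1 lower, and in CD4+ cells of injected against naive mice 0 were higher and 3 lower.

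Pycard encodes ASC, the adaptor that links sensors to caspase-1. Its values were 11.11, 11.27 and 11.22 in CD49b+ cells, 9.80, 10.13 and 10.30 in CD25+ cells, and 9.97 and 10.22 in injected CD4+ cells. It was higher in CD49b+ cells by 1.13 ± 0.12 (SE) against CD25+ cells (adjusted p = 0.000127) and by 1.10 against injected CD4+ cells (0.000159). In CD25+ against injected CD4+ cells it differed by -0.02 and was not called (0.92), with a sign that turned under median centring.

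Naip2, which encodes a sensor of bacterial secretion system proteins, had values of 6.82, 6.70 and 6.55 in CD49b+ cells, 5.76, 5.81 and 5.73 in CD25+ cells, 4.46 and 4.80 in injected CD4+ cells, and 5.31 and 5.67 in naive CD4+ cells. Its groups took the same order as those of Casp1. Naip2 was higher by 2.06 in CD49b+ and 1.14 in CD25+ against injected CD4+ cells (adjusted p = 2.79e-06 and 0.000183), higher by 0.92 in CD49b+ against CD25+ cells (0.000376), and lower by 0.86 in injected against naive CD4+ cells (0.0243). The last call was lost without replicate 1 of the injected or replicate 2 of the naive cells (adjusted p = 0.148 and 0.289, range over alternatives 0.00972 to 0.289).

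Serpinb1a, a serine protease inhibitor gene of leukocytes, was the inflammasome list member with the greatest difference in both subsets. Its values were 7.36, 7.32 and 7.49 in CD49b+ cells, 8.55, 8.83 and 8.07 in CD25+ cells, and 4.80 and 4.68 in injected CD4+ cells. The gene was higher by 2.65 in CD49b+ and 3.75 in CD25+ against injected CD4+ cells (adjusted p = 5.16e-06 and 1.01e-06), and lower by 1.10 in CD49b+ against CD25+ cells (0.00108). P2rx7, the channel through which extracellular ATP triggers inflammasomes, was higher by 1.55 in CD49b+ and 1.58 in CD25+ cells against injected CD4+ cells (5.48e-05 and 7.83e-05).

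Other members of the list were lower. Nlrp3, the sensor of the best known inflammasome, was lower by 0.73 in CD49b+ and 0.65 in CD25+ cells against injected CD4+ cells (adjusted p = 0.000108 and 0.000344), and its differences of -0.07 between the subsets and -0.11 between injected and naive CD4+ cells were not called. Mefv, which encodes the sensor pyrin, was lower by 0.68 in CD4+ cells of injected against naive mice (0.0176), a call lost without replicate 1 or 2 of the injected or replicate 2 of the naive cells (0.0821, 0.0986 and 0.247, range over alternatives 0.00668 to 0.247).

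The cytokines cut by caspase-1 went different ways. Il18 was higher by 0.73 in CD49b+ and 0.92 in CD25+ cells against injected CD4+ cells (adjusted p = 0.00967 and 0.00419). The CD49b+ call was lost without replicate 1 of the injected CD4+ cells (0.0846, range over alternatives 0.00132 to 0.741), and both were lost against naive CD4+ cells, where the differences were -0.08 and 0.11. The Il18 difference was -0.81 in injected against naive CD4+ cells (0.113), called without replicate 1 of the naive cells (0.0318, range over alternatives 0.0196 to 0.813), and in CD49b+ against CD25+ cells it was -0.19 (0.449).

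Il1b had values of 5.21, 5.02 and 4.98 in CD49b+ cells, 4.90, 4.99 and 5.01 in CD25+ cells, 5.33 and 6.22 in injected CD4+ cells, and 6.88 and 7.10 in naive CD4+ cells. It was lower by 0.70 in CD49b+ and 0.80 in CD25+ against injected CD4+ cells (adjusted p = 0.0174 and 0.0131), and lower by 1.22 in injected against naive CD4+ cells (0.0342). Both subset calls were lost without replicate 2 of the injected cells (0.14 and 0.0718, ranges over alternatives 7.12e-05 to 0.14 and 9.08e-05 to 0.0718), and the call against naive cells when any array but CD25+ replicate 3 and injected replicate 2 was left out (range over alternatives 0.00284 to 0.38). The myeloid marker sum was also lower in injected than in naive CD4+ cells, and its part in the Il1b difference was not tested. Gsdmd and Aim2 were not tested here.

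**Figure D4:**
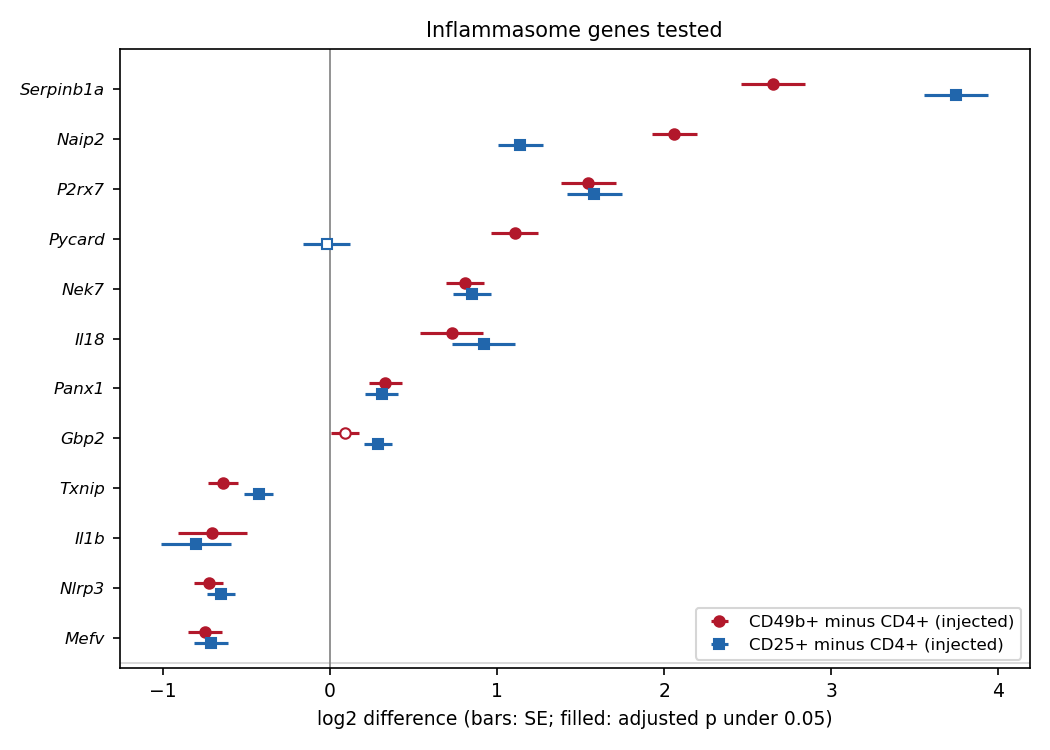
Log2 difference from CD4+ cells of injected mice (horizontal axis) of the 12 inflammasome genes tested (vertical axis) in CD49b+ cells (circles) and CD25+ cells (squares), with standard errors as bars and filled points where the adjusted p was under 0.05. Pycard is filled for CD49b+ cells only, and Serpinb1a has the greatest difference in both subsets.

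Genes of the death receptor complex and necroptosis feed into or oppose caspase-8. Of 14, 11 were tested, of which 63.6% were called in CD49b+ and 54.5% in CD25+ against injected CD4+ cells, and 36.4% between the subsets. Over all genes these shares were 53.4%, 38.6% and 29.9%. In the CD49b+ subset 5 were higher and 2 lower than in injected CD4+ cells, with a median of 0.06, and in CD25+ against injected CD4+ cells 6 were higher and 0 lower, with a median of 0.27. In CD49b+ against CD25+ cells 2 were higher and 2 lower, with a median of -0.13 against 0.03 over all genes, and in injected against naive CD4+ cells limma called 0 of 11, with 3 at an unadjusted p under 0.05.

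Fas, the death receptor that recruits caspase-8 through FADD, went opposite ways in the subsets. Its values were 7.25, 7.03 and 6.99 in CD49b+ cells, 8.62, 8.62 and 8.53 in CD25+ cells, and 7.95 and 7.86 in injected CD4+ cells. It was lower by 0.81 in CD49b+ and higher by 0.69 in CD25+ cells against injected CD4+ cells (adjusted p = 9.26e-05 and 0.000438), and lower by 1.50 in CD49b+ against CD25+ cells (1.94e-06). Fas differed by -0.11 in injected against naive CD4+ cells (0.769).

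Ripk3, the kinase that drives necroptosis when caspase-8 is blocked, had values of 9.14, 9.24 and 9.36 in CD49b+ cells, 8.02, 8.27 and 8.46 in CD25+ cells, and 7.45 and 7.83 in injected CD4+ cells. Ripk3 was higher by 1.61 in CD49b+ and 0.61 in CD25+ cells against injected CD4+ cells (adjusted p = 2.04e-05 and 0.00881), and by 1.00 in CD49b+ against CD25+ cells (0.000343). The CD25+ call was lost without replicate 1 of the injected cells (0.092, range over alternatives 0.00217 to 0.092).

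The ligand and adaptors moved as follows. Tnfsf10, which encodes the death ligand TRAIL, was higher by 1.14 in CD49b+ and 1.17 in CD25+ cells against injected CD4+ cells (adjusted p = 5.73e-05 and 7.73e-05). Tradd, the adaptor of the tumour necrosis factor receptor, was higher by 1.12 in CD49b+ against injected CD4+ cells (1.09e-05) and by 0.53 in CD49b+ against CD25+ cells (0.000967). Tradd had values of 4.18 and 4.27 in injected and 4.61 and 4.50 in naive CD4+ cells, under the medians of those arrays (4.79 to 4.81). It entered the tests only through the subset arrays, so the size of the first difference rests on a dim comparator. Traf2, a ubiquitin ligase of the same complex, was higher by 0.66 in CD25+ against injected CD4+ cells (0.00202).

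Tnfrsf1a, that receptor, was lower by 0.35 in CD49b+ against CD25+ cells (adjusted p = 0.0184), a call lost without CD49b+ replicate 2 or CD25+ replicate 1 or 3 (0.0635, 0.0538 and 0.0551, range over alternatives 0.00488 to 0.0635). Fadd, the adaptor for caspase-8, was higher by 0.29 in CD49b+ and 0.27 in CD25+ cells against injected CD4+ cells (0.0198 and 0.0363). The CD49b+ call was lost without either array of injected CD4+ cells or CD49b+ replicate 3, and the CD25+ call under 13 of 22 alternatives, among them each array of CD4+ cells left out in turn and CD25+ replicates 2 and 3 (ranges over alternatives 0.00113 to 0.709 and 0.00343 to 0.93). Cflar, the inactive relative that restrains caspase-8, differed by -0.21 in CD49b+ and 0.00 in CD25+ against injected CD4+ cells, by -0.21 in CD49b+ against CD25+ cells and by -0.10 in injected against naive CD4+ cells, and was not called.

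The apoptosome and mitochondrial list, which bears on caspase-9, had all 6 genes tested. The share called was 66.7% in CD49b+ and 33.3% in CD25+ against injected CD4+ cells, and 33.3% between the subsets. Over all genes these shares were 53.4%, 38.6% and 29.9%. Against injected CD4+ cells, CD49b+ cells had 4 higher and 0 lower, with a median of 0.49, and in CD25+ against injected CD4+ cells 2 were higher and 0 lower, with a median of 0.22. In CD49b+ against CD25+ cells 1 was higher and 1 lower, and in injected against naive CD4+ cells limma called 0 of 6, with 2 at an unadjusted p under 0.05.

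Apaf1, the scaffold on which caspase-9 is activated, had values of 8.36, 8.26 and 8.44 in CD49b+ cells, 7.50, 7.55 and 7.65 in CD25+ cells, and 7.39 and 7.30 in injected CD4+ cells. It was higher by 1.01 in CD49b+ against injected CD4+ cells (adjusted p = 4.03e-05) and by 0.79 against CD25+ cells (0.000169), and in CD25+ against injected CD4+ cells it differed by 0.22 (0.119). Apaf1 thus differed between the subsets where Casp9 itself, at 0.03, was not called. Apaf1 differed by -0.12 in injected against naive CD4+ cells (0.749).

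Htra2, a mitochondrial protease that relieves inhibition of caspases, had values of 7.24, 7.17 and 7.08 in CD49b+ cells, 7.79, 7.80 and 7.47 in CD25+ cells, and 6.42 and 6.67 in injected CD4+ cells. It was higher by 0.62 in CD49b+ and 1.14 in CD25+ against injected CD4+ cells (adjusted p = 0.0019 and 7.83e-05), and lower by 0.52 in CD49b+ against CD25+ cells (0.00467). Aifm1, which encodes apoptosis-inducing factor, was higher by 0.51 in CD49b+ and 0.62 in CD25+ against injected CD4+ cells (0.0034 and 0.00176). Cycs, cytochrome c, was higher by 0.47 in CD49b+ against injected CD4+ cells (0.0191), a call lost without replicate 1 of the injected cells or CD49b+ replicate 2 (0.111 and 0.0556, range over alternatives 0.00273 to 0.226).

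The list of inhibitor of apoptosis proteins, which bind caspases or act as ubiquitin ligases around them, had all 7 genes tested. It includes Xaf1, which is not such a protein but an antagonist of XIAP. The share called was 42.9% in CD49b+ and 28.6% in CD25+ against injected CD4+ cells, and 42.9% between the subsets. Over all genes these shares were 53.4%, 38.6% and 29.9%. In CD49b+ against injected CD4+ cells 2 were higher, among them Xaf1, and 1 lower. In CD25+ against injected CD4+ cells 2 were higher and 0 lower. In CD49b+ against CD25+ cells 1 was higher, which was Xaf1, and 2 lower. In injected against naive CD4+ cells limma called 0 of 7, with 0 at an unadjusted p under 0.05. Xiap, the direct inhibitor of caspase-9 and of the executioners, differed by 0.43 in CD49b+ and 0.55 in CD25+ against injected CD4+ cells (adjusted p = 0.116 and 0.0709), by -0.11 in CD49b+ against CD25+ cells and by -0.36 in injected against naive CD4+ cells. It was not called, and without replicate 1 of the injected cells it was called in both subsets (0.0336 and 0.0275, ranges over alternatives 0.0333 to 0.787 and 0.0247 to 0.525), and without CD25+ replicate 2 in CD25+ cells (0.0283).

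Birc5, which encodes survivin and is made chiefly in dividing cells, had values of 9.12, 9.77 and 9.90 in CD49b+ cells, 7.67, 8.76 and 8.98 in CD25+ cells, and 5.23 and 6.31 in injected CD4+ cells. Birc5 was higher by 3.82 in CD49b+ and 2.70 in CD25+ against injected CD4+ cells (adjusted p = 9.23e-05 and 0.00119), and the difference of 1.12 between the subsets was not called (0.0585). With the replicate number as a block over all 10 arrays, this difference was called (adjusted p = 9.52e-05), so that 2 genes of the list were higher and 2 lower. The pairing of the subset arrays in that block was taken from these same data and not from the labels. Birc3 and Birc2, ubiquitin ligases at the tumour necrosis factor receptor, were lower by 0.64 and 0.72 in CD49b+ against CD25+ cells (0.00131 and 0.0139). Birc6, a giant ubiquitin ligase of this family, was lower by 0.28 in CD49b+ against injected CD4+ cells (0.0328), a call lost without either array of injected CD4+ cells or CD49b+ replicate 2 or 3 (range over alternatives 0.00507 to 0.483). Birc3 was also higher by 0.73 in CD25+ against injected CD4+ cells (0.00103). The Birc3 calls were lost with the mean of its probe sets (0.0569 and 0.711), and that of Birc2 without CD25+ replicate 1 or CD49b+ replicate 3 (0.0555 and 0.05, range over alternatives 7.48e-05 to 0.0555).

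Xaf1, an antagonist of XIAP, was higher by 0.55 in CD49b+ against injected CD4+ cells (adjusted p = 0.00364) and by 0.33 against CD25+ cells (0.0444). With the mean of its probe sets the first difference was -0.23, and the second call was lost under 13 of 20 alternatives, among them each subset array but CD49b+ replicate 3 left out and each naive array left out (range over alternatives 0.0299 to 0.412).

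**Figure D5:**
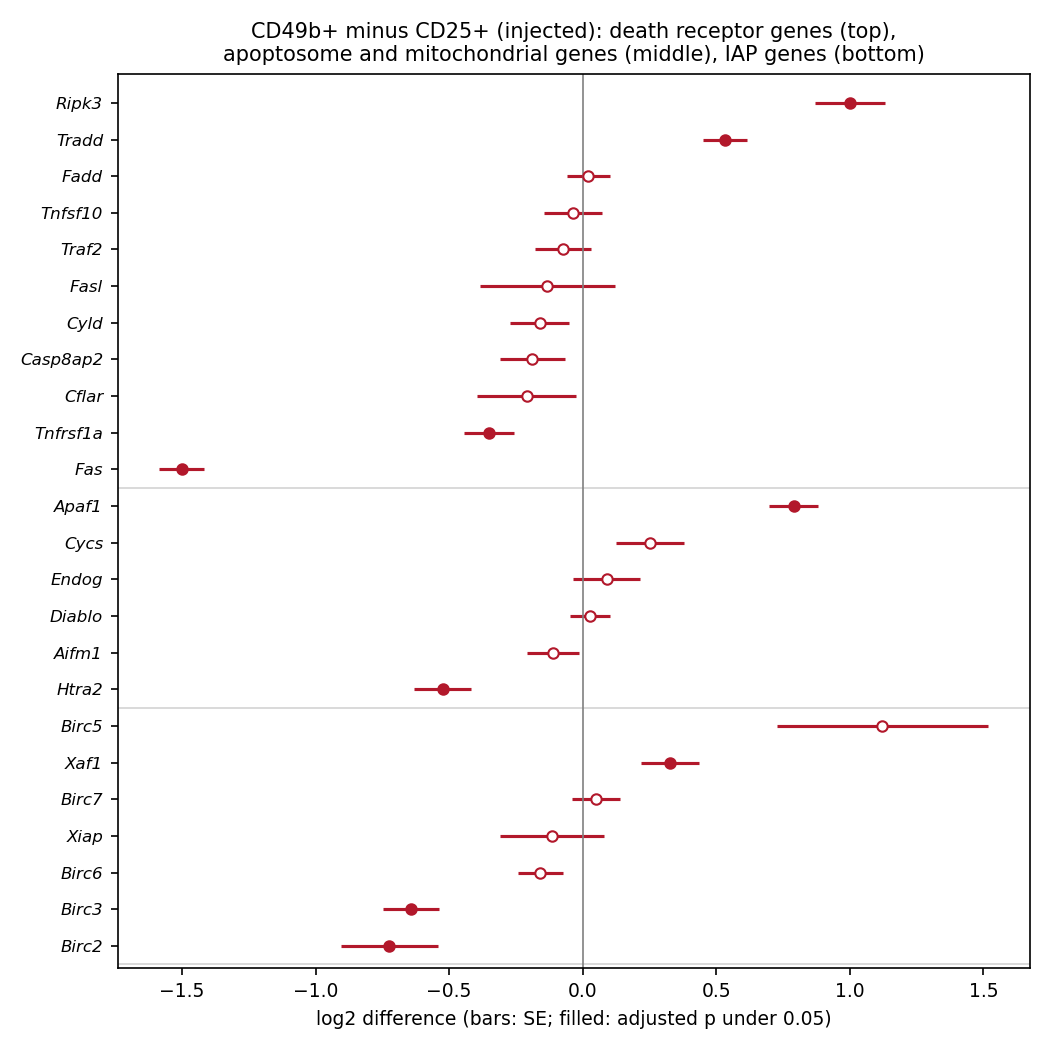
Log2 difference between CD49b+ and CD25+ cells (horizontal axis) of the tested genes of 3 lists (vertical axis), with standard errors as bars and filled points where the adjusted p was under 0.05. Ripk3 and Apaf1 lie highest among the filled points, at 1.00 and 0.79, and Fas lowest, at -1.50.

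The PIDDosome activates caspase-2 through Pidd1 and the adaptor gene Cradd, also named RAIDD. Both were tested. Against injected CD4+ cells, 2 were higher in CD49b+ and 1 in CD25+ cells, where 53.4% and 38.6% of all genes were called. In the other comparisons limma called 0 of 2, with 0 at an unadjusted p under 0.05. Cradd had values of 6.29, 6.14 and 6.21 in CD49b+ cells, 6.14, 6.15 and 5.98 in CD25+ cells, and 4.78 and 4.71 in injected CD4+ cells. It was higher by 1.46 in CD49b+ and 1.34 in CD25+ against injected CD4+ cells (adjusted p = 1.31e-06 and 3.57e-06), where Casp2 differed by -0.07 in both. Pidd1 was higher by 0.27 in CD49b+ cells (0.0309), a call lost without any 1 array of CD49b+ or injected CD4+ cells (range over alternatives 0.00163 to 0.16).

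Of 10 caspase substrates and apoptotic nucleases, 8 were tested. The share called was 62.5% in CD49b+ and 50% in CD25+ against injected CD4+ cells, and 25% between the subsets. Over all genes these shares were 53.4%, 38.6% and 29.9%. In CD49b+ against injected CD4+ cells 3 were higher and 2 lower, in CD25+ against injected CD4+ cells 2 were higher and 2 lower, and in CD49b+ against CD25+ cells 1 was higher and 1 lower. With the replicate block 2 were lower between the subsets, as the difference of -0.24 in Acin1 was then called (adjusted p = 0.0329, against 0.0612). In injected against naive CD4+ cells limma called 0 of 8, with 0 at an unadjusted p under 0.05. Lmna, the lamin cut by caspase-6, had values of 7.35, 7.62 and 6.70 in CD49b+ cells, 5.55, 6.12 and 4.64 in CD25+ cells, and 4.46 and 5.39 in injected CD4+ cells. Lmna was higher by 2.30 in CD49b+ against injected CD4+ cells (adjusted p = 0.00139) and by 1.79 against CD25+ cells (0.00557), and with the mean of its probe sets by 0.57 and 0.49, still called.

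Bid, which caspase-8 cuts to engage mitochondria, was higher by 0.71 in CD49b+ and 0.82 in CD25+ against injected CD4+ cells (adjusted p = 5.55e-05 and 4.01e-05). Rock1, a kinase switched on by caspase cleavage, was higher by 0.49 in CD49b+ against injected CD4+ cells (0.00204), a call lost with the mean of its probe sets (0.862, range over alternatives 0.000258 to 0.862). Parp1, a DNA repair enzyme cut in apoptosis, was higher by 0.43 in CD25+ against injected CD4+ cells (0.00513) and lower by 0.31 in CD49b+ against CD25+ cells (0.0172), the second call lost without CD49b+ replicate 3 (0.0596, range over alternatives 0.00857 to 0.0596).

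Dffa and Dffb encode the inhibitor and the nuclease of the DNA fragmentation factor released by executioner caspases. Dffa was lower by 0.37 in CD49b+ and 0.46 in CD25+ against injected CD4+ cells (adjusted p = 0.0262 and 0.0142), and Dffb by 0.50 in CD25+ cells (0.00358). The Dffa calls were lost without either array of injected CD4+ cells, and that of CD49b+ cells also without CD49b+ replicate 3 (ranges over alternatives 0.00762 to 0.313 and 0.00536 to 0.153).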

How the data were processed

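Per the labels' protocols, splenic CD4+ cells were enriched with magnetic beads, stained and sorted, and their total RNA was labelled and hybridised to expression arrays. The deposited log2 values were made by the authors with GCRMA, which corrects background, normalizes and summarises probes. The submitters' processing notes also name Affymetrix Expression Console 1.2.1. Whether all 10 arrays entered 1 normalization is not stated in these sources, and differences in level can come partly from this step. The number of arrays limits the precision.

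Of 45037 probe sets that are not controls (104 were), 28898 had 1 gene symbol, 551 several and 15588 none here. By gene number 28689 symbols were matched to RefSeq, which changed 0. The probe set with the highest mean stood for each gene. A gene entered the tests if it exceeded its array's 50th percentile on 2 or more arrays. The fit, of 4 group means by limma 3.58.1 in R 4.3.3 (lmFit and eBayes), left 6 degrees of freedom and was tested on simulated data. Tests are two-sided and confidence intervals are 95%.

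The members, lists and tests were chosen with earlier results of these data known. By the rule for named genes, every caspase, 11 direct partners where tested and up to 4 called members of each list a comparison are named, those with the greatest change. The genes most like a caspase are those with the smallest root mean square difference, passing over gene models. Alternatives changed the filter, scaling, prior, probe set choice, array weights, arrays in the fit and comparator, or left out each array. The naive comparator for the subsets was added after seeing the data. Same-numbered arrays of CD49b+ and CD25+ cells deviated together in all 3 pairs (correlations 0.16 to 0.64). The numbers were therefore taken to pair these arrays, from the data and not from the labels. Of their different-numbered pairs, CD49b+ replicate 1 with CD25+ replicate 2 gave 0.13, and the others were negative (-0.50 to -0.0084). Values were centred on the mean of their group, so different-numbered correlations depend on same-numbered ones and are no separate evidence on pairing. Over all groups, 8 of 24 different-numbered correlations exceeded 0.1, against 6 of 13 same-numbered ones, so the pairing is uncertain. The block was fitted on all 10 arrays, so it also tied same-numbered CD4+ arrays. The fit without the block stayed the reported one. In the other pairs of groups 3 of 10 correlations were over 0.1 (-0.21 to 0.53), with at most 2 pairs for any 2 groups, and the numbers were not taken to pair arrays.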

Additional observations from a re-analysis of the deposited data

How the results depend on the processing

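With groups of 2 or 3 arrays and pools of unstated independence, small differences such as those of Casp6 and Casp9 were within reach of single arrays, and dim genes could not be tested. Over the 504 alternative values of the 6 caspases, 460 kept their direction and side of the threshold, 17 lost a call, 6 gained one and 21 turned sign. Over 1729 values of 82 partner results these counts were 1605, 93, 8 and 23. Of the values that turned, 1 of Xaf1 and 1 of Fadd and 1 of Il18 belonged to called differences, and the others to differences that were not called. Where no reason is given, the cause was not tested.

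The number of genes called in CD49b+ against injected CD4+ cells was 9123 with no filter and 12639 over every probe set, against 5892. In CD25+ against injected CD4+ cells it was 7583 with no filter, 2500 with the 70th percentile filter and 8769 over every probe set, against 4261, and in CD49b+ against CD25+ cells 5677 over every probe set, against 3297. These filters and probe set choices change how many features are tested. In injected against naive CD4+ cells it was 328 with array weights and 377 with the replicate number as a block, against 153, and 0 with only the 4 arrays compared, where limma left 1737 genes at an unadjusted p under 0.05. The share of called genes that were higher was 78.3% in CD49b+ and 78.6% in CD25+ against injected CD4+ cells after median centring, and 38.6% and 34.3% with no filter, against 56.0% and 53.9%.

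The number of caspases called in injected against naive CD4+ cells was 2 with array weights and 2 with the replicate block, Casp4 joining Casp1 in both (adjusted p = 0.0174 and 0.00776), against 1, and 0 with only the arrays compared. The block changed no other caspase call. Between the subsets, whose arrays it pairs, it added the calls of Birc5 and Acin1 and changed no other call among the genes of the lists. For CD49b+ against injected CD4+ cells it was 2 with the mean of the probe sets and 1 against naive CD4+ cells, against 4. In CD25+ against injected CD4+ cells it was 5 after median centring and 0 against naive CD4+ cells, against 3, and in CD49b+ against CD25+ cells 2 after median centring, against 1.

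With each array left out in turn, the genes called numbered 16 to 154 in injected against naive CD4+ cells, 4357 to 5996 in CD49b+ and 2818 to 4180 in CD25+ against injected CD4+ cells, and 2496 to 3193 in CD49b+ against CD25+ cells. In injected against naive CD4+ cells the count fell to 101 and 16 without replicates 1 and 2 of the naive cells and to 30 without injected replicate 1, and in CD25+ against injected CD4+ cells to 2818 without that array. The caspases called numbered 0 to 2, 3 to 4, 2 to 3 and 1 to 1. A lone array left in a group was taken to vary as much as the other groups do.

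Some log2 differences turned sign. In CD49b+ against injected CD4+ cells, Casp8 was -0.11 with quantile normalization, -0.012 with the replicate block and -0.0030 against naive CD4+ cells, Casp2 was 0.12 after median centring, and Il18 was -0.083 against naive CD4+ cells. In CD25+ against injected CD4+ cells, Casp2 was 0.093 and Pycard 0.14 after centring, Pycard 0.0084 with array weights, and Casp6 -0.070 against naive CD4+ cells. Cflar was there -0.080 with quantile normalization, -0.037 with array weights, -0.047 against all 4 CD4+ arrays and -0.096 against naive ones. In CD49b+ against CD25+ cells, Casp2 was 0.030 after centring and Casp4 -0.013 with quantile normalization. With the mean of the probe sets, Xiap was 0.0044 in injected against naive CD4+ cells, -0.11 in CD49b+ and -0.12 in CD25+ against injected CD4+ cells, and 0.012 in CD49b+ against CD25+ cells. The same mean gave -0.23 for Xaf1 in CD49b+, and -0.012 for Fadd and -0.21 for Cflar in CD25+ against injected CD4+ cells.

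Leaving out single arrays turned the sign of others. In injected against naive CD4+ cells, Casp8 ranged from -0.20 to 0.11 and Apaf1 from -0.26 to 0.013. In CD49b+ against injected CD4+ cells, Casp2 ranged from -0.17 to 0.029 and Casp8 from -0.11 to 0.20. In CD25+ against injected CD4+ cells, Casp2 ranged from -0.16 to 0.031, Pycard from -0.14 to 0.12 and Cflar from -0.22 to 0.18. In CD49b+ against CD25+ cells, the ranges were -0.051 to 0.073 for Casp2, -0.11 to 0.17 for Casp4, -0.050 to 0.072 for Casp9, -0.027 to 0.090 for Fadd, -0.38 to 0.0084 for Cflar and -0.28 to 0.0030 for Xiap.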
